A study of Danio rerio with 186 samples.

Results

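The genes of glycolysis and lactate handling were followed across sorted endocrine cells of the zebrafish pancreas. The set lists 30 gene symbols, from the hexokinases that start the pathway to the lactate dehydrogenases and lactate carriers at its end, and was matched to the count table by gene name. Of these, 26 were found among 31953 gene rows. The other 4 are the carriers slc16a1a, slc16a1b, slc16a3a and slc16a3b. No row bears those names, and 4 rows with related names are described with the lactate genes and kept out of every count of the set.

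Glycolysis splits glucose into pyruvate through a chain of enzymes, and most steps can be run by any of several paralogs that differ in affinity, regulation and tissue. Lactate dehydrogenase turns pyruvate into lactate, which leaves the cell through monocarboxylate transporters. In beta cells of mammals, glucose is phosphorylated mainly by glucokinase, and pyruvate is passed to the mitochondria. Hk1, Ldha and Slc16a1 belong to the genes called disallowed because they are kept low in these cells. For Ldha and Slc16a1 this lets insulin release follow glucose and not circulating pyruvate or lactate.

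All cells came from fish at 30 days post fertilization that carried the same pair of reporters, Tg(ins:BB1.0L) and TgBAC(sst1.1:memEGFP), driven by the insulin gene and by the somatostatin gene sst1.1. They were profiled one by one with Smart-Seq2, in which each well of a plate holds a cell and reads fall along whole transcripts. The sort gave 66 sst1.1+ cells on plate 4, 60 sst1.1+ ins+ cells on plate 3, and 60 ins+ cells, of which 27 were on plate 4 and 33 on plate 3; the plate is the number in the sample title, read as such. The gates rest on promoter-driven fluorescence, no fish are named, and the sst1.1+ and the sst1.1+ ins+ gate share no plate.

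Of 186 cells, 174 had at least 500 genes and 50000 gene reads, and these were summed into 4 pools: 61 sst1.1+ cells, 57 sst1.1+ ins+ cells, 24 ins+ cells of plate 4 and 32 ins+ cells of plate 3, with 34186971, 27382339, 12550652 and 13530311 gene reads in that order. By hormone reads, 59 of the 61, 45 of the 57, 23 of the 24 and 32 of the 32 cells matched their gate, meaning at least 5% of reads in the gate's hormone or hormones and less than that in the other. This match leaves other pancreatic hormones aside. They passed 5% of reads in 15 of the 61, 7 of the 57, 1 of the 24 and 3 of the 32 cells. With 1 pool per gate and plate there is no replicate, so no difference was tested, and a gene is called higher or lower here only when pool levels differed by at least 2-fold and one of them reached 10 CPM, the usual scaled share of the pool's gene reads. Brackets hold 95% intervals. For shares of cells these are Clopper-Pearson intervals that treat the cells of a pool as independent draws. Cells of a pool share a plate and their fish are not named, so neither overlap nor distance of these intervals tests the gates. For levels, ratios and paralog shares the intervals are exact Poisson or binomial and cover counting error of reads only. Reads copied by PCR and carrying no molecular identifier cannot be counted as separate molecules, so the latter intervals are too narrow for molecules. How far 2 pools of one gate can lie apart is seen only for ins+ cells, which were on both plates. Gates filled different rows of a plate, apart from row F of plate 3 (3 sst1.1+ ins+ and 9 ins+ cells) and row C of plate 4 (8 sst1.1+ and 3 ins+ cells), so gate and row cannot be told apart outside these rows. Levels are shares of a pool's reads. The median cell held 41.8 gene reads per spike-in read in the sst1.1+ pool, 71.1 in the sst1.1+ ins+ pool, and 29.1 and 28.3 in the ins+ pools of plates 4 and 3. Scaled to spike-ins, the median of all genes moved up by 0.36 in log2 for sst1.1+ over ins+ cells and by 1.17 for sst1.1+ ins+ over ins+ cells.

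Of the 26 genes, 19 reached 10 CPM in at least 1 pool. The muscle-type phosphofructokinase pfkma, the isomerase gpib, the aldolases aldoab and aldoca and the pyruvate kinase pkmb had 0 reads in all 4 pools, where 3 reads would be 0.0878 to 0.239 CPM. The row gapdh held 2 reads, both in the sst1.1+ pool, and hk2 stayed under 10 CPM. How reads that fit several paralogs were treated is not given in the sources used here, so a row at 0 beside a well-read copy is uncertain to that extent. Summed over the 26 rows, the set took 4789 CPM in the sst1.1+ pool, 3617 CPM in the sst1.1+ ins+ pool, 4680 CPM in ins+ cells of plate 4 and 4035 CPM in ins+ cells of plate 3. The median cell stood at 4482, 3530, 4825 and 3948 CPM in the same order. The set thus took 0.362 to 0.479% of gene reads, and as a share of reads the sst1.1+ ins+ pool lay lowest of the 4. Gene reads per spike-in read were highest there. Scaled to spike-ins, the set's median log2 ratio in that pool was 1.07 over ins+ cells of plate 3 and 0.40 over sst1.1+ cells. The low place of that pool thus holds for shares of reads only.

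**Figure D1:**
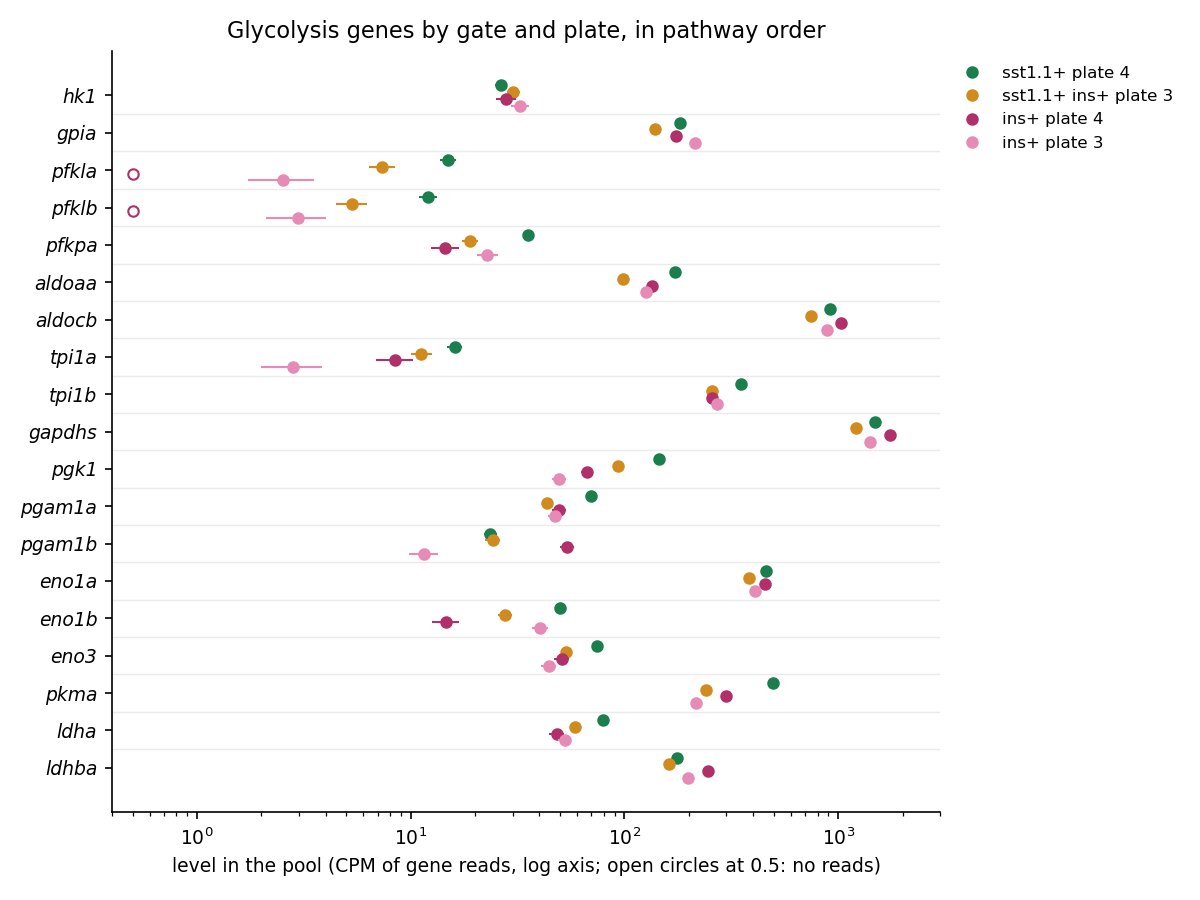
Level of each of the 19 genes that reached 10 CPM, in pathway order from top to bottom. Levels are CPM of summed gene reads on a log axis, with 1 point per pool. Lines are 95% Poisson intervals, which cover counting error of reads only. Points of different genes are not comparable, as reads are not corrected for length; within a gene, pgk1 stands at 145 and 93.2 CPM in the sst1.1+ and sst1.1+ ins+ pools, above 66.9 and 49.4 CPM for the plate 4 and plate 3 pools of ins+ cells.

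At the entry of the pathway, gck, slc2a2 and hk1 kept within 2-fold in every comparison. Glucokinase gck, which is no member of the set, stood at 888 CPM in sst1.1+ cells, 701 CPM in sst1.1+ ins+ cells, and 729 and 647 CPM in ins+ cells of plates 4 and 3. It held 89.1% of the reads of hk1, hk2, gck and hkdc1 in sst1.1+ cells, 87.1% in sst1.1+ ins+ cells, and 86.9% and 87.7% in ins+ cells of plates 4 and 3. These shares, like all paralog shares given here, are not corrected for transcript length and are read only across gates. The glucose transporter slc2a2 stood at 361, 272, 325 and 337 CPM in the sst1.1+, sst1.1+ ins+, ins+ plate 4 and ins+ plate 3 pools.

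The broadly used hexokinase hk1, the first disallowed gene of the set, stood at 26.4 CPM in sst1.1+ cells, 30.2 CPM in sst1.1+ ins+ cells, 27.9 CPM in ins+ cells of plate 4 and 32.4 CPM in ins+ cells of plate 3. The ratio was 0.946 (0.835 to 1.07) for sst1.1+ over ins+ cells and 0.932 (0.829 to 1.05) for sst1.1+ ins+ over ins+ cells, while the ratio between the ins+ pools was 0.859 (0.745 to 0.991). In the rows that held both gates, with few cells each, the log2 ratios were −3.28 on plate 4 and −2.33 on plate 3. Its reads were spread unevenly over cells. The lowest cell had 0 CPM in every pool, the median cell had 0, 6.97, 0 and 0 CPM in the order above, and the highest 514, 202, 290.3 and 225 CPM. Cells with at least 5 reads made up 34.4% (22.7 to 47.7) of sst1.1+ cells, 49.1% (35.6 to 62.7) of sst1.1+ ins+ cells, and 20.8% (7.13 to 42.2) and 28.1% (13.7 to 46.7) of ins+ cells on plates 4 and 3. With each cell thinned to 100000 gene reads, the shares were 14.8%, 25%, 16.7% and 18.8%. Their intervals overlap throughout, which is no test of the gates, since cells are not replicates of a gate. In sst1.1+ cells the cell with most hk1 reads gave 29.6% of them, and the pool stood at 18.9 CPM without it. The second hexokinase hk2 had 2.37, 1.28, 0 and 2.29 CPM in the 4 pools and came from 4, 2, 0 and 2 cells.

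At the next step gpia, the phosphoglucose isomerase, stood at 183 CPM in sst1.1+ cells against 175 CPM in ins+ cells of plate 4. On plate 3 it stood at 139 CPM in sst1.1+ ins+ cells against 214 CPM in ins+ cells, a ratio of 0.648 (0.617 to 0.680). That ratio lies under the 0.815 between the ins+ pools, and its direction turns with spike-in scaling, where the log2 ratio was 0.58.

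Phosphofructokinase, which commits sugar to glycolysis, was the step with the widest difference on plate 4. The liver-type paralogs pfkla and pfklb had 14.9 and 12.1 CPM in sst1.1+ cells, 7.38 and 5.30 CPM in sst1.1+ ins+ cells, 0 reads of either in ins+ cells of plate 4, and 2.51 and 2.96 CPM in ins+ cells of plate 3. With 3 reads in the whole pool put in place of 0, sst1.1+ cells stood 62.4-fold higher for pfkla than ins+ cells of plate 4. For pfklb they stood 50.5-fold higher. The exact intervals of these ratios begin lower, at 50.6 and 40.9. The same floor puts ins+ cells of plate 4 10.5-fold and 12.4-fold lower than those of plate 3, with intervals reaching up to ratios of 0.124 and 0.104. Part of the distance thus lies between pools of the same gate. Few cells carried these reads: 18 of 61 sst1.1+ cells, 14 of 57 sst1.1+ ins+ cells and 0 of 24 and 2 of 32 ins+ cells of plates 4 and 3 had at least 5 pfkla reads. For pfklb these were 7 (11.5%, 4.74 to 22.2), 6, 0 and 3 cells of the same pools, and a single sst1.1+ cell gave 35.8% of its pool's reads. The folds thus rest on the chosen floor and on read counts only. With log2 levels averaged over cells, the plate 4 log2 ratio of pfklb was 0.72, under the 2-fold call. For the 24 ins+ cells, a count of 0 allows a share of up to 12.5% when taken as 3 of 24 cells, and of up to 14.2% by the Clopper-Pearson bound. A single cell gave 82.4% of the pfkla reads of ins+ cells on plate 3, which stood at 0.459 CPM without it.

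The platelet-type paralog pfkpa stood at 35.5 CPM in sst1.1+ cells, 19 CPM in sst1.1+ ins+ cells, and 14.5 and 22.8 CPM in ins+ cells of plates 4 and 3. The ratio of sst1.1+ to ins+ cells was 2.44 (2.09 to 2.87), and that of sst1.1+ ins+ to ins+ cells 0.830 (0.720 to 0.959). The median cell had 0, 1.81, 0 and 0 CPM and the highest 335, 147, 141 and 349 CPM, and 1 cell held 42.9% and 40.8% of the reads in the ins+ pools of plates 4 and 3. With the cell richest in pfkpa left out of each pool, the sst1.1+ and ins+ pools of plate 4 stood at 28.4 and 8.67 CPM. On plate 3 the pools then stood at 16.7 CPM in sst1.1+ ins+ and 14.3 CPM in ins+ cells, so the direction there rests on single cells. Its partner pfkpb, outside the set, went the other way on plate 4, with 3.31 CPM in sst1.1+ cells against 15.7 CPM in ins+ cells, while sst1.1+ ins+ and ins+ cells of plate 3 had 15.85 and 15.3 CPM. With that, pfkpb took 5.03% of phosphofructokinase reads in sst1.1+ cells, 33.4% in sst1.1+ ins+ cells, and 52% and 35.1% in ins+ cells of plates 4 and 3. All phosphofructokinase reads together, pfkpb included, came to 65.8, 47.5, 30.2 and 43.6 CPM in the sst1.1+, sst1.1+ ins+, ins+ plate 4 and ins+ plate 3 pools. The ratio on plate 4 was 2.18 (1.95 to 2.43), the ratio on plate 3 was 1.09 (0.987 to 1.2), and the ins+ pools differed by 0.693 (0.607 to 0.789).

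**Figure D2:**
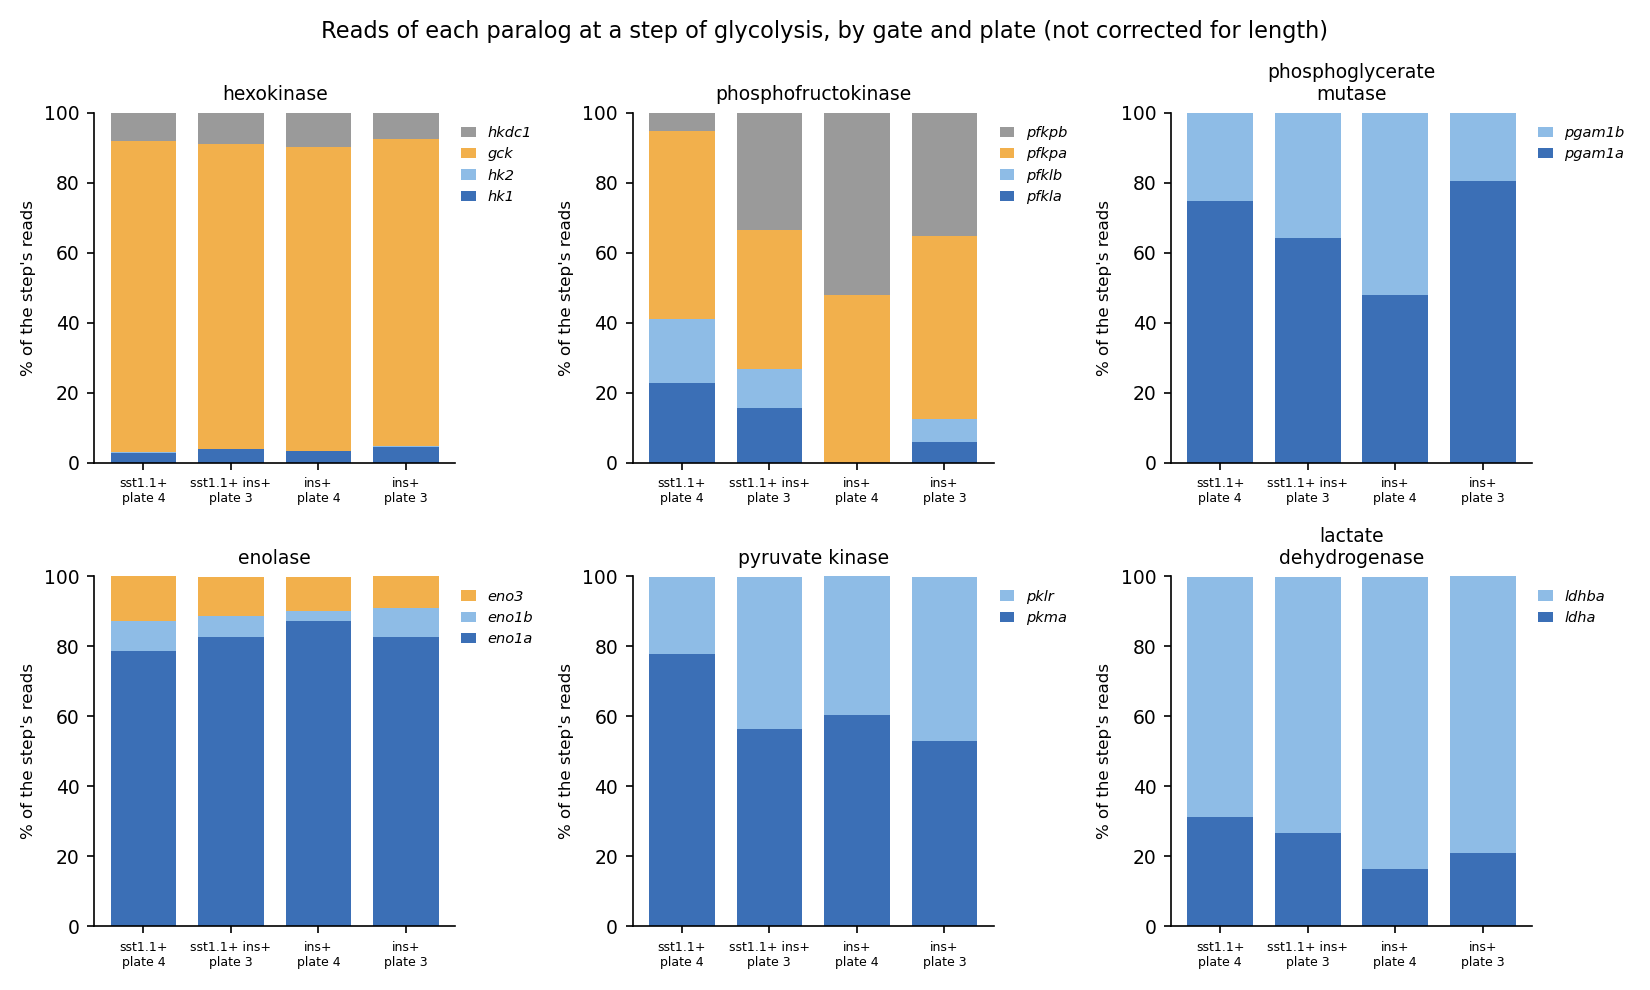
Percent of a step's reads that each paralog holds in the sst1.1+, sst1.1+ ins+, ins+ plate 4 and ins+ plate 3 pools, for 6 steps, with no correction for length. The liver-type genes pfkla and pfklb hold reads in every pool but ins+ of plate 4, pkma holds 77.7% of pyruvate kinase reads in sst1.1+ cells and 52.8 to 60.5% in the other pools, and the share of gck hardly moves.

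Aldolase splits the sugar into trioses. Its gene aldocb stood at 914.5, 748, 1027 and 883 CPM in the sst1.1+, sst1.1+ ins+, ins+ plate 4 and ins+ plate 3 pools, and aldoaa at 172, 98.3, 134 and 126 CPM. Both kept within 2-fold in each comparison of gates. The aldoaa level of ins+ cells on plate 4 drew on 1 cell for 33.8% of its reads and was 93.2 CPM without it.

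Triose phosphate isomerase balances the trioses, and tpi1b carried nearly all of its reads. It stood at 351, 256, 257 and 272 CPM in the 4 pools. The minor paralog tpi1a had 16, 11.2, 8.45 and 2.81 CPM, and its ratio on plate 3 was 3.99 (2.84 to 5.75), which made it one of the called genes there. In ins+ cells of plate 3 that level rested on 38 reads, 63.2% of them from 1 cell.

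The GAPDH step, which makes NADH, was read almost wholly from the row gapdhs, at 1488 CPM in sst1.1+ cells, 1215 CPM in sst1.1+ ins+ cells, 1754 CPM in ins+ cells of plate 4 and 1406 CPM in ins+ cells of plate 3. It was detected in 60 of 61 sst1.1+ cells and in all 57, 24 and 32 cells of the other pools. The exception was 1 sst1.1+ cell in which the whole set summed to 3 CPM.

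The clearest difference that the gates of both plates shared was at pgk1, the phosphoglycerate kinase that makes the first ATP of the pathway. Cells of the sst1.1+ gate held 0, 122 and 458 CPM at the lowest, median and highest cell, and cells of the sst1.1+ ins+ gate 0, 70.7 and 427 CPM. In ins+ cells the lowest, median and highest values were 0, 2 and 399 CPM on plate 4 and 0, 0 and 352 CPM on plate 3. The ranges overlap, but the middle cells of both sst1.1+ gates sat far above those of both ins+ pools. Summed, pgk1 stood at 145 CPM in sst1.1+ against 66.9 CPM in ins+ cells of plate 4, a ratio of 2.17 (2.01 to 2.33). It stood at 93.2 CPM in sst1.1+ ins+ against 49.4 CPM in ins+ cells of plate 3, a ratio of 1.89 (1.73 to 2.06), which falls just short of the 2-fold call. In the rows that held both gates the log2 ratios were 1.05 on plate 4 and 1.28 on plate 3. The ins+ pools differed by 1.36 (1.22 to 1.5). Cells with at least 5 pgk1 reads made up 86.9% (75.8 to 94.2) of sst1.1+ cells and 93% (83.0 to 98.1) of sst1.1+ ins+ cells, against 45.8% (25.6 to 67.2) and 31.3% (16.1 to 50) of ins+ cells on plates 4 and 3. At an equal 100000 gene reads the shares were 78.7% and 71.4%, against 33.3% and 25%.

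The number of genes per cell moved with those shares. At 100000 reads the median cell showed 3131 genes in the sst1.1+ pool, 4202.5 in the sst1.1+ ins+ pool, and 2475.5 and 2318 in the ins+ pools of plates 4 and 3. Among all genes over the 10 CPM minimum, 7.49% on plate 4 and 7.56% on plate 3 had a thinned share at least 20 points higher in the sst1.1+ or sst1.1+ ins+ gate. In the set, 3 of 19 genes did on plate 4 (pgk1, eno1b and aldoaa) and 3 of 17 on plate 3 (pgk1, eno3 and ldha). The set is read in more cells than most genes, so these counts are not on like terms. On plate 4 the median share was 57.4% and 41.7% for the set in sst1.1+ and ins+ cells, against 16.4% and 12.5% over all genes. On plate 3 it was 71.4% and 34.4% in sst1.1+ ins+ and ins+ cells, against 17.9% and 15.6%. Within a pool, pgk1 showed little relation to the number of genes in a cell, with a Spearman rho across cells of 0.10, 0.013, −0.14 and 0.15 in the 4 pools. The part of gene number in the difference between gates was not tested.

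Phosphoglycerate mutase was read from pgam1a and pgam1b. The first stood at 70.0, 43.5, 49.5 and 47.4 CPM in the sst1.1+, sst1.1+ ins+, ins+ plate 4 and ins+ plate 3 pools. The second stood at 23.5, 24.1, 54 and 11.5 CPM. Both gate comparisons called pgam1b, lower in sst1.1+ cells (0.436, 0.393 to 0.483) and higher in sst1.1+ ins+ cells (2.09, 1.76 to 2.51), yet the ins+ pools of plates 4 and 3 differed by 4.69 (3.93 to 5.61), more than either.

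Enolase was read mainly from eno1a. It stood at 460, 384, 453 and 407 CPM in the 4 pools, and eno3, the enolase named for muscle, at 74.6, 53, 50.8 and 44.2 CPM. The paralog eno1b stood at 49.7, 27.6, 14.6 and 40.4 CPM and was called higher in sst1.1+ over ins+ cells of plate 4, at 3.41 (2.92 to 3.99). Its ins+ pool on plate 4 was itself lower than that on plate 3, at 0.361 (0.303 to 0.427), and the sst1.1+ ins+ pool lay under its ins+ pool, at 0.683 (0.611 to 0.764). The brain-type eno2, outside the set, stayed under 10 CPM in all pools.

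Pyruvate kinase closes glycolysis, and its gene pkma was highest in the sst1.1+ pool. The gene pkma had 0, 339 and 2801 CPM at the lowest, median and highest sst1.1+ cell, and 0, 226 and 602 CPM in sst1.1+ ins+ cells. In ins+ cells it had 0, 305 and 614 CPM on plate 4 and 3.90, 235 and 515 CPM on plate 3. The cells of the 4 pools overlap, and only the sst1.1+ pool reached beyond 614 CPM. Summed levels were 496 CPM in sst1.1+ cells, 241 CPM in sst1.1+ ins+ cells, and 299 and 216 CPM for the plate 4 and plate 3 pools of ins+ cells. Ratios were 1.66 (1.6 to 1.72) on plate 4 and 1.12 (1.07 to 1.17) on plate 3, and the ins+ pools differed by 1.38 (1.32 to 1.45). The liver and red-cell type pyruvate kinase pklr, outside the set, was lower in sst1.1+ cells by less than 2-fold, with 142 CPM against 195 CPM in ins+ cells of plate 4, and stood at 187 CPM in sst1.1+ ins+ and 193 CPM in ins+ cells of plate 3. It held 22.3% (21.7 to 22.8) of pyruvate kinase reads in sst1.1+ cells, 43.7% (42.8 to 44.6) in sst1.1+ ins+ cells, and 39.5% (38.3 to 40.7) and 47.2% (45.9 to 48.5) in the ins+ pools of plates 4 and 3. The median over cells gave the same picture, at 24.3%, 43.3%, 42% and 43.3%.

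Lactate dehydrogenase was read from ldha, the subunit known for lactate production and another disallowed gene in mammalian beta cells, and from ldhba, the subunit of the heart type. The ldha levels of the lowest, median and highest cell were 0, 60.3 and 378 CPM in sst1.1+ cells and 0, 49.9 and 330.3 CPM in sst1.1+ ins+ cells. In ins+ cells they were 0, 3.55 and 216 CPM on plate 4 and 0, 1.08 and 694 CPM on plate 3. Neither ins+ pool was free of ldha, and the highest single cell of all was an ins+ cell of plate 3 that gave 26.9% of its pool's reads. Summed, ldha stood at 79.6 CPM in sst1.1+ against 48.2 CPM in ins+ cells of plate 4, a ratio of 1.65 (1.51 to 1.81), and at 58.8 CPM in sst1.1+ ins+ against 52.5 CPM in ins+ cells of plate 3, a ratio of 1.12 (1.03 to 1.23). The ins+ pools differed by 0.919 (0.823 to 1.03). Without the top cell of each pool the levels were 74.6 CPM in sst1.1+, 56.1 CPM in sst1.1+ ins+, and 40.8 and 39.2 CPM in ins+ cells of plates 4 and 3.

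Cells with at least 5 ldha reads made up 65.6% (52.3 to 77.3) of sst1.1+ cells and 82.5% (70.09 to 91.3) of sst1.1+ ins+ cells, against 45.8% (25.6 to 67.2) and 37.5% (21.1 to 56.3) of ins+ cells on plates 4 and 3. After thinning the shares were 54.1% and 50%, against 37.5% and 25%. The intervals of the gates overlapped on each plate, which is no test, since cells are not replicates of a gate. Among cells that matched their gate by hormone reads the shares were 67.8% of 59 sst1.1+ cells, 86.7% of 45 sst1.1+ ins+ cells, and 43.5% of 23 and 37.5% of 32 ins+ cells. The ins+ cells with and without 5 ldha reads had like amounts of ins, with medians of 371753 and 375675 CPM on plate 4 and of 398883 and 410881 CPM on plate 3. Other pancreatic hormones passed 5% of reads in 1 of 11 ins+ cells with and 0 of 13 without 5 ldha reads on plate 4, and in 2 of 12 with and 1 of 20 without on plate 3.

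The partner ldhba ran opposite to ldha on plate 4, with 176 CPM in sst1.1+ against 246 CPM in ins+ cells, a ratio of 0.716 (0.686 to 0.748). On plate 3 it stood at 161 CPM in sst1.1+ ins+ against 199 CPM in ins+ cells, a ratio of 0.809 (0.771 to 0.849). With spike-in scaling the plate 4 log2 ratio was −0.10 and the plate 3 log2 ratio turned to 0.89. At least 5 reads were seen in 88.5% of sst1.1+ cells, 98.2% of sst1.1+ ins+ cells, and 87.5% and 84.4% of ins+ cells. Within the step, which no scaling touches, ldha held 31.1% (30.2 to 32.1) of reads in sst1.1+ cells and 26.7% (25.6 to 27.9) in sst1.1+ ins+ cells, against 16.4% (15.2 to 17.6) and 20.9% (19.5 to 22.3) in ins+ cells of plates 4 and 3. In the median cell with reads of the step the ldha share was 28.8% and 23.7%, against 8.75% and 2.06%. The distance on plate 3, 26.7% against 20.9%, is close to the 16.4% and 20.9% that set the ins+ pools apart. The step as a whole stood at 256, 220.0, 294 and 252 CPM, within 2-fold in every comparison.

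**Figure D3:**
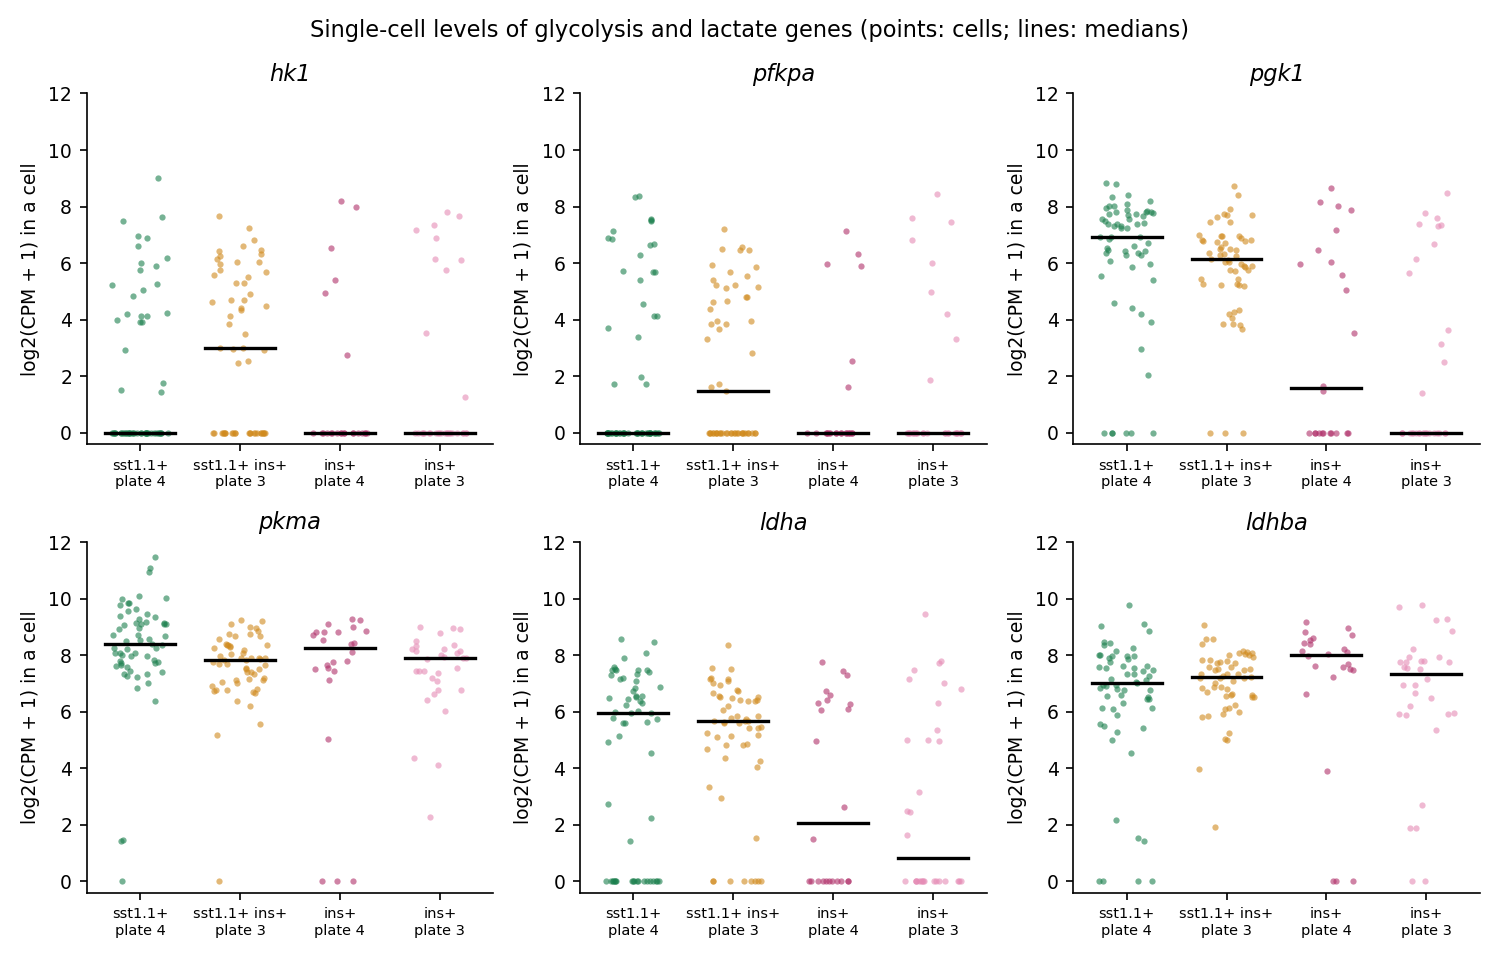
Level of 6 genes in single cells, as log2(CPM + 1), with 1 point per cell, a black line at the median and the sst1.1+, sst1.1+ ins+, ins+ plate 4 and ins+ plate 3 pools from left to right. For pgk1 and ldha the medians of both sst1.1+ gates, from 49.9 to 122 CPM before the log, lie far above those of the ins+ pools. The latter run from 0 to 3.55 CPM, with many ins+ cells at 0. Summed ldha levels on plate 3 were close, at 58.8 CPM in sst1.1+ ins+ and 52.5 CPM in ins+ cells. For ldhba and pkma most cells of every pool lie above 0.

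The lactate carriers were hardly read. Under related names, a row slc16a1 had 0 reads in all pools, and a row SLC16A1 (1 of 2) had 59 reads in sst1.1+ cells, 63 reads in sst1.1+ ins+ cells, and 0 and 4 reads in ins+ cells of plates 4 and 3. The rows slc16a3 and SLC16A3 (1 of 2) had 39 and 37 reads in sst1.1+ cells, 0 and 0 reads in sst1.1+ ins+ cells, 4 and 0 reads in ins+ cells of plate 4, and 0 and 11 reads in ins+ cells of plate 3. Which listed symbol each row stands for is not settled by the names. Together they came to 3.95, 2.30, 0.319 and 1.11 CPM, and at most 4 cells of a pool held any read of a row. Their chaperone bsg, basigin, stood at 34, 47.7, 41.6 and 29.4 CPM. For SLC16A1 (1 of 2) the ratio of sst1.1+ ins+ to ins+ cells on plate 3 was 7.78 (2.89 to 29.4), by reads alone. The limit is the number of cells, since 71.4% of those 63 reads came from 1 cell, and no difference of the carriers is read from them.

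**Figure D4:**
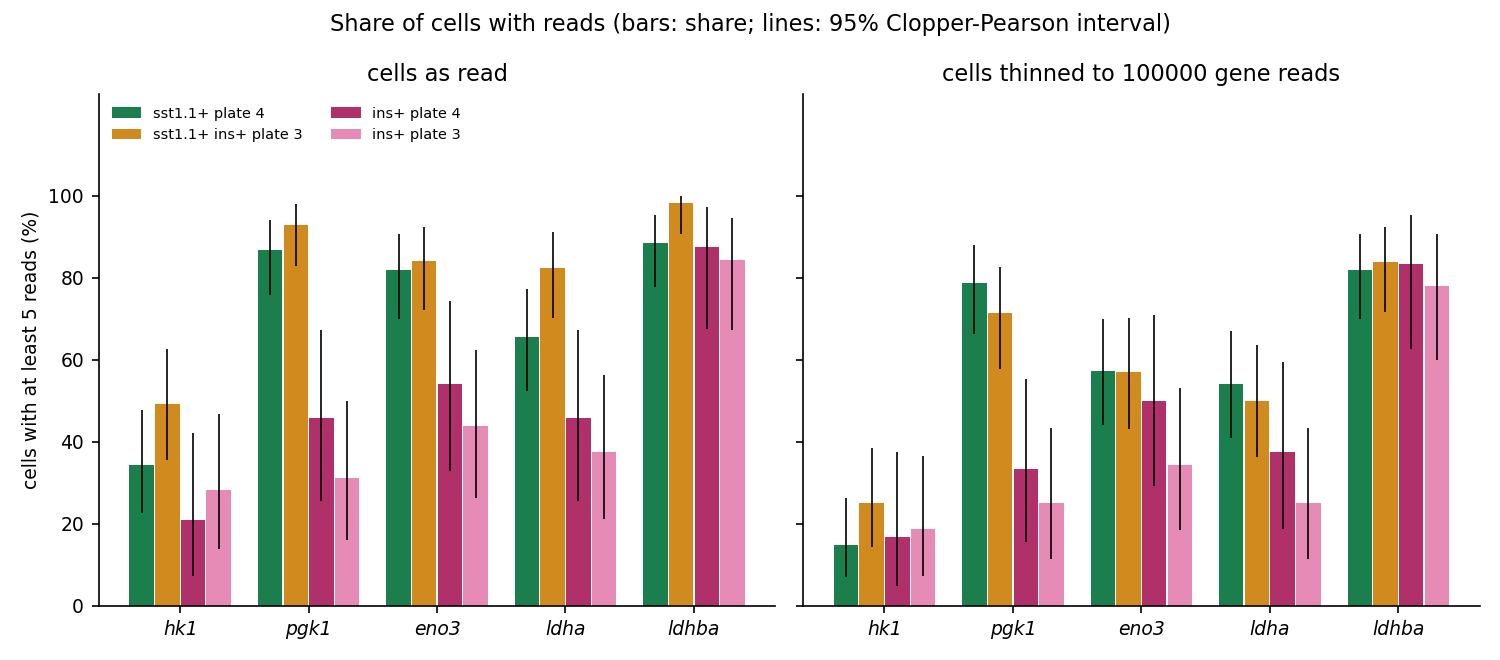
Percent of cells with at least 5 reads of 5 genes, in cells as read (left) and in cells thinned to 100000 gene reads (right), with 95% Clopper-Pearson intervals; bars run sst1.1+, sst1.1+ ins+, ins+ plate 4 and ins+ plate 3. For pgk1 the thinned shares were 78.7% and 71.4% against 33.3% and 25%. After thinning the intervals of hk1, eno3, ldha and ldhba overlap. The intervals treat cells as independent draws, so neither their overlap nor their distance tests the gates.

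Counted over the set, sst1.1+ over ins+ cells on plate 4 gave 5 of 19 measured genes called higher (pfkla, pfklb, pfkpa, pgk1 and eno1b), where 23.3% of 7547 genes were called higher, and 1 called lower (pgam1b), where 18.2% were. The count of genes called higher is near that background and the count called lower is under it. The median log2 ratio of the set was 0.49, against 0.036 over all genes. Of the 19 ratios 14 lay above 1, against 3886 of 7547 over all genes. In the plate row that held both gates, with 8 sst1.1+ and 3 ins+ cells, the order was the other way, with a median of 0.60 for the set against 1.04 over all genes. With pfkla and pfklb at the folds from the floor of 3 reads, in place of values set by the added 1 CPM, the median was 0.50. Of the 13 genes that reached 50 CPM in one of the pools, 11 kept within 2-fold. At that minimum 16.3% of all genes were called higher and 12.8% lower, so most genes kept within 2-fold too.

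For sst1.1+ ins+ over ins+ cells on plate 3, 2 of 17 genes were called higher (tpi1a and pgam1b), with 13.9% of 6824 genes called higher in all. None was called lower, with 14.1% called lower in all. The first count is near the background and the second under it. The median log2 ratio was −0.10, against −0.08 over all genes, and all 11 genes that reached 50 CPM kept within 2-fold. At that minimum 6.57% of all genes were called higher and 6.16% lower. With spike-in scaling the medians of the set were 0.86 on plate 4 and 1.07 on plate 3, against 0.40 and 1.09 over all genes, and since that scaling moves all genes of a pool alike, the distance of the set from the median gene hardly moves by construction.

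The ins+ pools, plate 4 over plate 3, gave 1 of 16 genes called higher (pgam1b) and 1 called lower (eno1b), against 21.3% and 16.1% of 7168 genes. Their log2 ratios had an SD of 0.71 over the 16 genes and of 1.38 over all genes. These SDs are not on like terms, because the set is read in more cells than most genes. The pgk1 ratio of 2.17 on plate 4 and 1.89 on plate 3 lay farther from 1 than the 1.36 between the ins+ pools. On plate 4 so did the pkma ratio of 1.66, against 1.38, and the ldha ratio of 1.65, against 0.919. The same held on plate 4 for pfkpa (2.44, against 0.635), eno1b (3.41, against 0.361), eno3, pgam1a, tpi1b, aldoaa and ldhba. It did not for hk1, gpia, aldocb, gapdhs, eno1a and pgam1b. Each gate ratio shares an ins+ pool with the ratio between the ins+ pools, so they are not independent. Against ins+ cells of plate 3, sst1.1+ cells stood at 49.7 against 40.4 CPM for eno1b and at 35.5 against 22.8 CPM for pfkpa. With ins+ cells of both plates the log2 ratio of eno1b for sst1.1+ over ins+ cells was 0.81, under the 2-fold call. On plate 3 the pkma ratio of 1.12 was smaller than that between the ins+ pools, and the ldha ratio was 1.12.

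**Figure D5:**
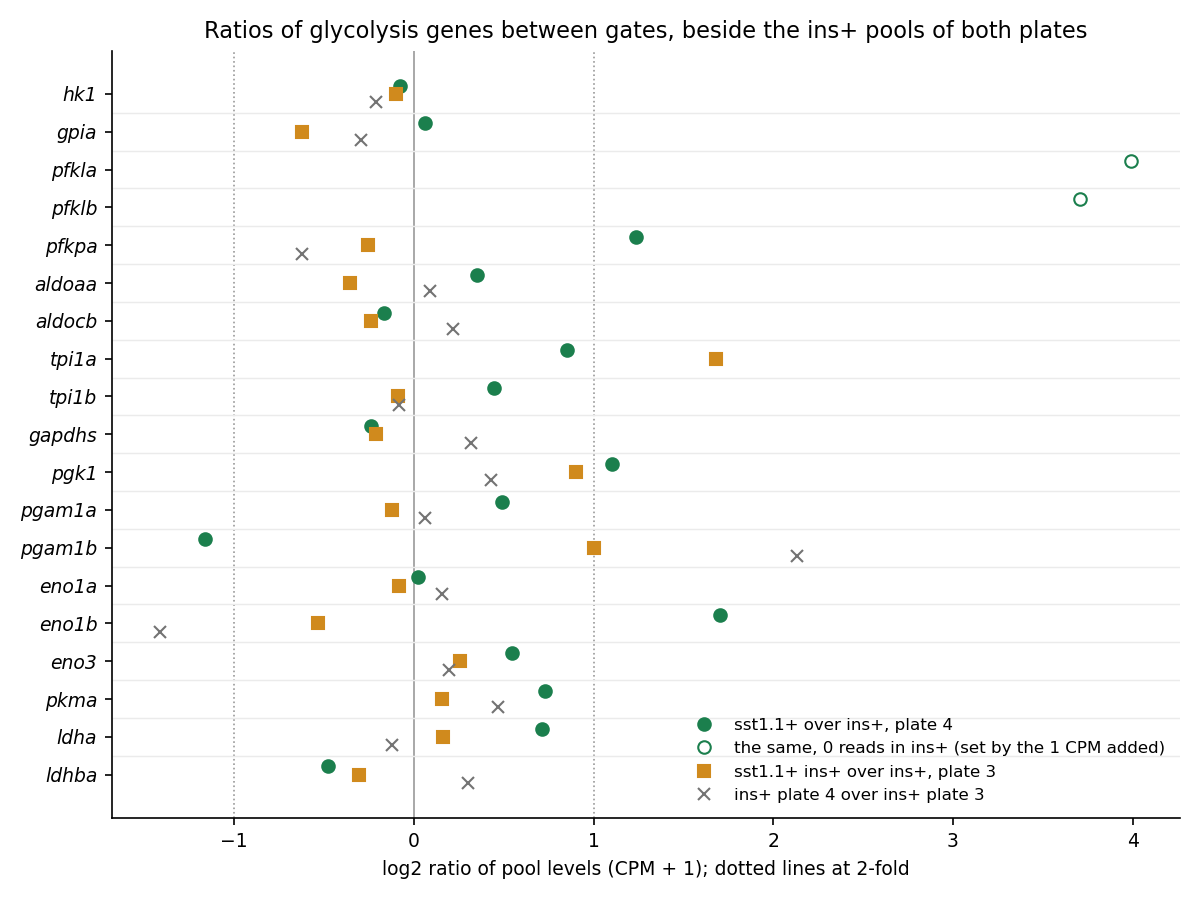
Log2 ratio of pool levels, after 1 CPM was added to each, for the genes measured in each comparison: circles for sst1.1+ over ins+ on plate 4, squares for sst1.1+ ins+ over ins+ on plate 3 and crosses for ins+ of plate 4 over ins+ of plate 3. Open circles mark pfkla and pfklb, whose place is set by the added 1 CPM because ins+ cells of plate 4 had 0 reads; pgam1b and eno1b have crosses farther from 0 than their square, and pgk1 lies near 1 in both gate comparisons.

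Since no plate held both, plate and gate cannot be told apart between sst1.1+ ins+ cells and sst1.1+ cells. Set directly against sst1.1+ cells, 0 of 19 genes were called higher in sst1.1+ ins+ cells, with 5.47% of 6981 genes called higher in all, and 3 were called lower, with 15% called lower in all: pkma (0.486, 0.472 to 0.5), pfkla (0.495, 0.418 to 0.583) and pfklb (0.438, 0.360 to 0.531). The count called lower is near the background. The median log2 ratio was −0.48, against −0.26 over all genes, and 17 of 19 ratios lay below 1. Over all genes 4653 of 6981 ratios lay below 1, so much of that direction is shared. Taken relative to each plate's ins+ pool, the log2 differences kept their sign for pkma (−0.57), gpia (−0.68), aldoaa (−0.71), ldha (−0.55) and pgk1 (−0.20), among others. They also did for pfkpa (−1.49), eno1b (−2.24), pfkla (−2.74) and pfklb (−3.04), where the values of pfkla and pfklb rest on the added 1 CPM. They were near 0 for hk1 (−0.02) and gapdhs (0.03), with the sign turned from the direct ratios of 0.19 and −0.29. The sign also turned for tpi1a, with −0.48 directly and 0.83 relative to ins+ cells. For ldhba it turned too, with −0.13 directly and 0.17 relative to ins+ cells. These relative values share no cells with each other across plates but carry the differences of the ins+ pools. For pgam1b the log2 value was 2.17 by that route and 0.03 directly. Spike-in scaling moved the median of all genes up by 1.17 on plate 3 and by 0.36 on plate 4. Relative values rise with that scaling, and their signs under it were not computed. With spike-ins the direct log2 ratios of gpia, pgk1 and eno1b turned to 0.50, 0.26 and 0.051, among others. The median of the set was then 0.40, against 0.61 over all genes. For pkma and pfkla the direct values with spike-ins stayed below 0, at −0.14 and −0.11. With means of log2 levels the direct log2 ratios of pfkpa, aldoaa and ldha turned to 0.29, 0.34 and 0.61. That of pkma stayed below 0 in all 13 alternatives.

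Other genes around the pathway were counted list by list, beside 23.3% of all genes called higher and 18.2% lower on plate 4, and 13.9% higher and 14.1% lower on plate 3. The list of mitochondrial pyruvate use had 1 of 10 measured genes called higher and 3 lower on plate 4, and 0 higher and 2 lower of 10 on plate 3. Among them pdk2b, a kinase that switches pyruvate dehydrogenase off, stood at 6.93 CPM in sst1.1+ and 19.6 CPM in sst1.1+ ins+ cells, against 114 CPM in ins+ cells of each plate. The ratios were 0.061 (0.053 to 0.070) and 0.171 (0.155 to 0.189), while the ins+ pools differed by 0.999 (0.929 to 1.07). At least 5 reads were found in 11.5% and 22.8% of the cells, against 37.5% and 34.4%, and the richest ins+ cell of plate 4 held 38.3% of its pool's reads. The pyruvate dehydrogenase subunit dlat stood at 33.6 and 29.9 CPM, against 83.5 and 62.7 CPM. Both genes were lower in the sst1.1+ and the sst1.1+ ins+ gate. The counts in lists this short are small.

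Genes of gluconeogenesis and glucose release had 1 of 5 called higher and 3 lower on plate 4, and 0 of 3 called on plate 3. Pyruvate carboxylase pcxb, which refills the citric acid cycle from pyruvate and is abundant in beta cells of mammals, stood at 59.7 CPM in sst1.1+ against 502 CPM in ins+ cells of plate 4, a ratio of 0.119 (0.113 to 0.125). On plate 3 it stood at 213 CPM in sst1.1+ ins+ against 315 CPM in ins+ cells, a ratio of 0.677 (0.651 to 0.705). In single cells pcxb was read at least 5 times in 14.8% of sst1.1+ cells and 93% of sst1.1+ ins+ cells, against 100% and 96.9% of ins+ cells on plates 4 and 3. The glucose-6-phosphatase g6pcb stood at 91.2 CPM in sst1.1+ and 231 CPM in sst1.1+ ins+ cells, against 284 CPM in ins+ cells of plate 4 and 442 CPM in those of plate 3.

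The NADH shuttles, which carry the hydrogen made at the GAPDH step to the mitochondria, had 0 of 11 called higher and 4 lower on plate 4, where 18.2% of all genes were lower, and 0 higher and 3 lower of 11 on plate 3, where 14.1% were. Their glycerol-3-phosphate dehydrogenase gpd1b stood at 66.4 and 97.1 CPM in sst1.1+ and sst1.1+ ins+ cells, against 163 and 197 CPM in ins+ cells of plates 4 and 3. Its ratios were 0.407 (0.383 to 0.432) and 0.493 (0.467 to 0.520). The malate dehydrogenases mdh1aa and mdh2 of the other shuttle kept within 2-fold, at 277 and 389 CPM in sst1.1+ cells against 284 and 436 CPM in ins+ cells of plate 4.

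Of the enzymes that set fructose 2,6-bisphosphate, an activator of phosphofructokinase, 2 of 3 measured were called higher and 0 lower on plate 4, and 0 of 2 on plate 3. The called ones were pfkfb4a, with 44.6 CPM in sst1.1+ cells against 1.2 CPM in ins+ cells of plate 4, and pfkfb3, with 14.9 CPM against 0. The ins+ cells of plate 3 held 20.5 CPM of pfkfb4a and 5.47 CPM of pfkfb3. The best-read, pfkfb4b, stood at 123 CPM in sst1.1+ and 147 CPM in sst1.1+ ins+ cells, against 216 and 213 CPM in ins+ cells of plates 4 and 3. One ins+ cell of plate 4 gave 48.4% of its pool's reads. Without the top cell of each pool the levels on plate 4 were 111 CPM in sst1.1+ and 116 CPM in ins+ cells, so the difference there rests on 1 cell. The pentose phosphate pathway had 1 of 8 called higher and 1 lower on plate 4 and 0 of 6 on plate 3. The glucose entry list had 0 of 1 called on plate 4 and, on plate 3, 0 of 3 higher and 1 lower. The list of hypoxia and other regulators had 1 of 10 higher and 0 lower on plate 4, and 2 of 9 higher and 0 lower on plate 3; its hif1ab, a hypoxia-inducible factor, stood between 112 and 152 CPM in the 4 pools.

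The list of other lactate carriers and chaperones had 0 of 1 called on either plate. Other features of the cells moved with the gates. A list of stress genes, made of immediate-early genes and genes induced by tissue dissociation, took 28775 CPM in sst1.1+ and 13798 CPM in sst1.1+ ins+ cells, against 3385 and 4083 CPM in ins+ cells of plates 4 and 3. It had 23 of 25 genes called higher on plate 4, where 23.3% of all genes were, and 20 of 25 on plate 3, where 13.9% were. Within the sst1.1+ pool, cells with more of these reads had more reads of the glycolysis set (Spearman rho 0.54 over 61 cells) and of pkma (0.45), while pgk1 (0.16) and ldha (0.025) showed little of this. The rho of the summed set was 0.21 over 57 sst1.1+ ins+ cells, −0.14 over 24 ins+ cells of plate 4 and −0.27 over 32 ins+ cells of plate 3. Cells of a pool share their plate and sort, and both measures are shares of one total. Duct markers summed to 393 CPM in sst1.1+ and 227 CPM in sst1.1+ ins+ cells, against 115 and 152 CPM in ins+ cells of plates 4 and 3. Of the 3 measured on plate 4 all were called higher in sst1.1+ cells, and 0 of 2 were called on plate 3, while cftr and sox9b were at 0 in the sst1.1+ pool. Alpha and epsilon cell markers summed to 26332, 8891, 8566 and 2756 CPM in the sst1.1+, sst1.1+ ins+, ins+ plate 4 and ins+ plate 3 pools. Their median cells held 104, 513, 598 and 563 CPM. The other delta-type hormones summed to 30173, 18072, 569 and 13863 CPM, with median cells at 12677, 5692, 37.9 and 46.9 CPM. Acinar markers summed to 168, 16.4, 50.9 and 8.57 CPM in the 4 pools. Leukocyte markers summed to 87.5, 27.6, 19.7 and 0.148 CPM with ptprc at 0 in all pools, and endothelial markers to 2.02, 1.06, 0 and 0 CPM. Fibroblast and mural cell markers reached at most 31.7 CPM, in sst1.1+ cells, hepatocyte markers at most 5.55 CPM and erythrocyte markers at most 1.24 CPM, both in sst1.1+ ins+ cells. The part of stress, of these cells and of plate rows in the differences of the glycolysis genes was not tested.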

How the data were processed

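The deposited data are whole-number counts per gene and cell, not normalized by the authors. Trim Galore, HISAT2, featureCounts and the build GRCz11 are named per the submitters' processing notes. The sources used here give no versions, annotation release, strand setting or treatment of reads with several matches. The table has 32046 rows, of which 92 are spike-ins, with 5.61% of reads, and 1 is EGFP.

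From these counts, cells with at least 500 genes and 50000 gene reads were kept, which held 84778 to 895868 gene reads, and summed by gate and plate into 4 pools. No 2 cells held identical counts. Doublets were not called. Levels, in CPM, carry exact Poisson intervals, ratios carry exact conditional binomial intervals, and shares of cells carry Clopper-Pearson intervals, all at 95%. Log2 ratios add 1 CPM, which understates the change of low genes. Calls took at least 2-fold among genes with 10 CPM in either pool, and such a gene with 0 reads in the other pool was called. The floor of 3 reads served for the folds where a pool had 0, not for the calls. Alternatives changed the total, the cells, the summary, the pseudocount or the minimum, and edgeR 4.0.16 under R 4.3.3 gave the TMM factors.

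The gene set, the other lists and the alternatives were chosen with earlier results of these data known. Every gene of the set with 10 CPM in any pool is named. Of other lists, at most 2 genes in each direction with the largest ratio and 50 CPM in the higher pool are named, plus paralogs at their step and markers; mdh1aa, mdh2, hif1ab, bsg, slc2a2, pfkfb3 and pfkfb4a were named after their values were seen. Of 211 listed symbols besides the set, 9 were not found, and 1 gene outside the set is not reported here. Ratio intervals were run on simulated Poisson counts, the model they assume. Reads clustered in single cells or copied by PCR were not simulated, so that run does not show coverage for such reads.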

Additional observations from a re-analysis of the deposited data

How the results depend on the processing

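Results were recomputed with other totals, cells, summaries, pseudocounts and minimums. One alternative, keeping only cells that matched their gate by hormone reads, was chosen after seeing the data.

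The median log2 ratio of the set (main values 0.49 for sst1.1+ over ins+, −0.10 for sst1.1+ ins+ over ins+, 0.12 for ins+ plate 4 over plate 3 and −0.48 for sst1.1+ ins+ over sst1.1+) moved as follows. For sst1.1+ over ins+ it was 0.33 with a total without hormones, 0.86 with spike-ins, 0.72 with means of log2 levels, 0.62 without each gene's top cell and 0.35 with a minimum of 50 CPM. For sst1.1+ ins+ over ins+ it was 1.07 with spike-ins, 0.94 with means of log2 levels and −0.33 in the shared plate row, which holds 3 and 9 cells. For ins+ plate 4 over plate 3 it was −0.0059 with TMM and 0.29 with means of log2 levels. For sst1.1+ ins+ over sst1.1+ it was −0.32 without hormones, −0.31 with TMM, 0.40 with spike-ins and 0.058 with means of log2 levels.

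Counts of genes called moved too. For sst1.1+ over ins+ (5 higher, 1 lower), 8 were higher and 0 lower with spike-ins and with means of log2 levels, 0 were lower with means of CPM and with ins+ cells of both plates, and 1 was higher with a minimum of 50 CPM. Over all genes, 31.5% were higher and 11.9% lower with spike-ins, and 23% and 5.01% with means of log2 levels. With means of CPM 18.6% of all genes were lower, with ins+ cells of both plates 12.7%, and at 50 CPM 16.3% were higher. For sst1.1+ ins+ over ins+ (2 higher, 0 lower), 10 were higher with spike-ins, 8 with means of log2 levels, 1 after thinning and with ins+ cells of both plates, 0 with a minimum of 50 CPM and with gate-matched cells, and 5 higher and 4 lower in the shared row. The shares of all genes called higher were 55.8%, 41.3%, 14.7%, 9.7%, 6.57% and 14.5% in that order of settings. In the shared row 26.9% of all genes were higher and 39.6% lower, so these counts largely moved with all genes. For ins+ plate 4 over plate 3 (1 and 1), 2 were lower with means of CPM and after thinning, 2 higher and 0 lower with means of log2 levels, and 0 lower with a minimum of 50 CPM. Of all genes, 16.5% were lower in each of the first 2 settings and 4.18% in the last. With means of log2 levels 7.74% of all genes were higher and 6.52% lower. For sst1.1+ ins+ over sst1.1+ (0 and 3), 1 was lower without hormones, with TMM, without each top cell, with a minimum of 50 CPM and with gate-matched cells, 0 with means of log2 levels, and 1 higher and 0 lower with spike-ins. The shares of all genes called lower were 11.2%, 10.7%, 13.1%, 9.43%, 15.8% and 1.75% in that order. With spike-ins 27.5% of all genes were higher and 2.92% lower.

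Of single genes called, pgam1b turned to −0.39 on plate 3 with ins+ cells of both plates, and pfklb to 0.077 in sst1.1+ ins+ over sst1.1+ with means of log2 levels. On plate 4 pgk1 ranged from 0.95 to 3.03 and ldha from 0.56 to 1.2, and on plate 3 pgk1 from 0.68 to 3.48 and ldha from 0.083 to 2.17, with the same sign in all 15 alternatives each. In the shared row of plate 4, with 8 and 3 cells, pfkpa stood at 0.52, under the 2-fold call, and hk1 at −3.28; in that of plate 3 hk1 stood at −2.33. The causes of these moves were not tested, apart from what each alternative builds in. Paralog shares per length were not run, since no lengths for the files' build were given. No paired analysis was possible because no fish are named, so cells of different gates cannot be matched by fish. A single pool per gate and plate, 24 ins+ cells on plate 4 and sparse reads of low genes limit every comparison.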
